A study of Mus musculus with 2 samples.

Results

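The genes described here are 9 retinoid binding and metabolism genes, chosen by symbol from the 31053 genes of the files: Crabp1, Crabp2, Rbp4, Adh1, Adh7, Aldh1a1, Aldh1a2, Aldh1a3 and Cyp26b1. They were measured by single-cell RNA sequencing in dermal cells of untreated skin (UT) and of skin treated for 7 days with imiquimod (IMQ), an activator of Toll-like receptors used on skin to model psoriasis. The mice of both groups were C57BL/6, 8 weeks old and of the genotype PdgfraDreER-tdTomato, in which tamoxifen, given to both groups, turns on tdTomato in cells that use the Pdgfra promoter. The dermis was separated from the epidermis by enzyme digestion. Live tdTomato+ CD45- cells were then sorted from the dermis, a sort meant to leave out the leukocytes. There was 1 library per group, so no spread between mice could be estimated, no test was run, and every interval is an exact 95% interval that covers counting error only.

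Retinoic acid is made from vitamin A in steps that these genes serve. RBP4 carries retinol in the blood, alcohol dehydrogenases such as ADH1 and ADH7 oxidise it to retinaldehyde, and the ALDH1A enzymes oxidise retinaldehyde to retinoic acid. CRABP1 and CRABP2 bind retinoic acid in the cytoplasm, and CYP26B1 degrades it, while the receptors RAR and RXR carry its signal to target genes. In skin, retinoids are known for their effects on keratinocyte differentiation, on the hair follicle and on the dermal matrix.

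Cells with 200 to 5000 detected genes and at most 5% mitochondrial UMIs (unique molecular identifiers, the tags that count captured transcripts) were kept. This left 1045 of 1415 UT barcodes with 1104798 UMIs and 571 of 5047 IMQ barcodes with 460947 UMIs. The median kept cell in UT held 741 UMIs (391 genes) and in IMQ 659 UMIs (275 genes), and no kept barcode occurred in both libraries. The noncoding RNA Gm42418 took 1.38% of UMIs in UT and 14.6% in IMQ. Fibroblast markers were abundant in both libraries, with 81179 CPM (UMIs scaled to a library total of 1e6) over the 9 listed genes in UT and 122424 CPM in IMQ. Pdgfra itself gave 49 UMIs in UT and 18 in IMQ, and Ptprc, which encodes CD45, gave 1 and 0. Levels of markers of other cell types differed between the libraries. Keratinocyte genes (10 listed) were at 1914 CPM in UT and 19.5 CPM in IMQ. Myeloid and antigen presenting genes (8 listed) were at 1599 and 202 CPM, and mural genes at 171 and 84.6 CPM. In UT, 2028 of the 2115 keratinocyte UMIs lay in the 9 cells with Crabp2, of which 2 carried 2 or more keratinocyte markers. UT cells without Crabp2 were at 84.2 CPM of keratinocyte genes. Of the 1767 myeloid UMIs in UT, 1527 lay in the 14 cells with Rbp4, of which 1 carried 2 or more myeloid markers. UT cells without Rbp4 were at 223 CPM of myeloid genes. The melanocyte list, with 4 of its 5 genes at 0, was at 20.8 and 67.3 CPM. The lymphatic endothelial list was at 1.81 and 13.0 CPM, and the adipocyte list at 0.905 and 6.51 CPM. The lymphatic endothelial UMIs were 2 of Ccl21a in UT, and 5 of Ccl21a and 1 of Prox1 in IMQ. The adipocyte UMIs were 1 in UT and 3 in IMQ, all of Fabp4, so both lists were too low to compare. The part of these differences in the results was not tested.

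The promoters of Crabp1, Cyp26b1 and Aldh1a1 are shown because these genes had the 2 lowest and the highest ratios of IMQ over UT among the members with over 100 CPM in a library. Each sequence is the 250 bases before the RefSeq start in GRCm38.p6, read 5′ to 3′ on the strand of the gene. The windows are chr9:54764498-54764747 on the plus strand for Crabp1, chr6:84593811-84594060 on the minus strand for Cyp26b1 and chr19:20601718-20601967 on the plus strand for Aldh1a1. The Aldh1a1 window belongs to the downstream of its 2 RefSeq starts and lies inside the longer GENCODE gene, as does part of the Cyp26b1 window. Capitals mark any match on either strand to a retinoid receptor hexamer (written AGGTCA, where the first base may also be G and the third base may also be T), to the GC box GGGCGG or to the TATA motif TATAAA.
Crabp1: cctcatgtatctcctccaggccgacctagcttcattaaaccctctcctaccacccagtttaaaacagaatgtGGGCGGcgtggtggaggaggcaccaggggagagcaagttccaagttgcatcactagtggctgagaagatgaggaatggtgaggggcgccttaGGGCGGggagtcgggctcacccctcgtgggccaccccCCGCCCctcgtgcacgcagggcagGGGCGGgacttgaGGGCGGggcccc
Cyp26b1: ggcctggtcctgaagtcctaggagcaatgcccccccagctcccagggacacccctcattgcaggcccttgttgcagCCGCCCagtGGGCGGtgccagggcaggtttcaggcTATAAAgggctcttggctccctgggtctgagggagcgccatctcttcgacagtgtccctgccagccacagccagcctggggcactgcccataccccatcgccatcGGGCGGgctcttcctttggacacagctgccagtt
Aldh1a1: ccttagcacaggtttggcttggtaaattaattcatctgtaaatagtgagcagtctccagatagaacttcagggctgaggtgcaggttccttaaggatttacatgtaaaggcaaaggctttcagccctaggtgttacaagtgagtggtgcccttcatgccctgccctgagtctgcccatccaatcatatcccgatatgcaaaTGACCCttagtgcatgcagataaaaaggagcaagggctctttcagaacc
Crabp1 held 5 matches to the GC box and Cyp26b1 held 3, with 1 TATA match in Cyp26b1, and neither window held a receptor hexamer. The Aldh1a1 window shown held 1 receptor hexamer and no match to the other motifs, and its upstream window, not shown, held 0 matches to any of them. Among the first 250 bases of all 32851 promoters of the table, 38.6% held a receptor hexamer, 32.7% a GC box and 12.4% a TATA motif, counted separately also where matches overlapped. The GC box and TATA motif were added after the sequences had been seen. Direct repeats of the hexamer with spacers of 1, 2 or 5 bases, the form that RAR and RXR bind as a pair, were searched in the promoters of the 7 members that matched by symbol, of which Rbp4 and Aldh1a1 had 2 promoters each. There were 0 such repeats in the members' windows, against 0.426% of all promoters. A match or its absence is a description of these letters only.

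Among the members, Crabp1 was the most abundant in UT and Aldh1a1 was the most abundant in IMQ. In UT the order was Crabp1 at 474 CPM, Cyp26b1 at 339, Adh7 at 332, Aldh1a1 at 248, Adh1 at 95, Crabp2 at 21.7 and Rbp4 at 13.6 CPM. The intervals of Cyp26b1 and Adh7 overlapped, as did those of Crabp2 and Rbp4. In IMQ the order was Aldh1a1 at 423 CPM, Adh7 at 208, Cyp26b1 at 150, Crabp1 at 88.9, Adh1 at 43.4, and Crabp2 and Rbp4 at 8.68 CPM each. There the intervals of Adh7 and Cyp26b1, of Cyp26b1 and Crabp1, and of Crabp1 and Adh1 overlapped. Counts from the 3′ end do not grow with gene length, so these levels were compared between genes without a length term. A member was seen in 625 of 1045 UT cells (59.8%) and in 238 of 571 IMQ cells (41.7%).

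**Figure D1:**
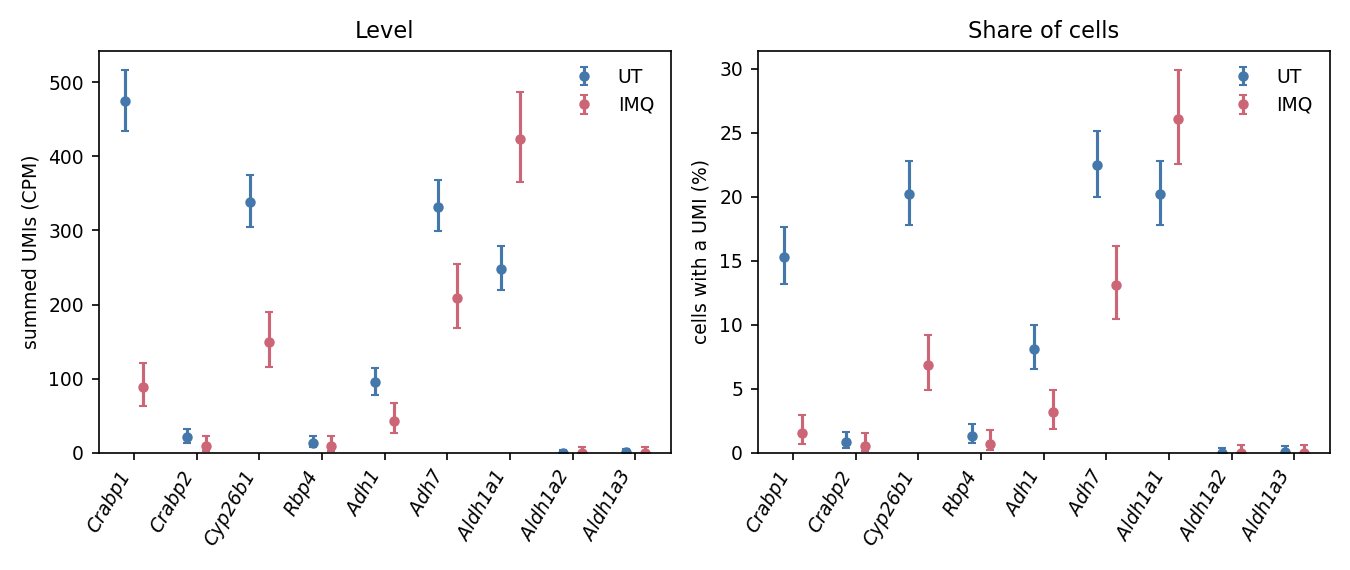
Level of each of the 9 genes in CPM (left) and percentage of kept cells with a UMI (right), for UT (blue) and IMQ (red), 1 library each. Points are the values and bars are exact 95% intervals for counting error only. Aldh1a1 was higher in IMQ on both scales, while Crabp1, Cyp26b1, Adh1 and Adh7 were lower on both.

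The binding protein gene Crabp1 (ENSMUSG00000032291, chromosome 9, 54764748 to 54773110, plus strand, GRCm38) showed the lowest ratio of the members. It gave 524 UMIs in 160 UT cells and 41 UMIs in 9 IMQ cells. Its level was 474 CPM (435 to 517) in UT and 88.9 CPM (63.8 to 121) in IMQ, which gives a log2 ratio of -2.41 (-2.91 to -1.95). IMQ was therefore 5.33-fold lower, and 4.55% of the measured genes had a lower ratio than Crabp1. The share of cells with a UMI was 15.3% (13.2 to 17.6) in UT and 1.58% (0.723 to 2.97) in IMQ. After each cell had been thinned to 400 UMIs, which left out 73 UT and 33 IMQ shallower cells, the shares were 9.98% and 0.929%.

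The ratio of Crabp1 was closer to 0 among cells with many detected genes. With a minimum of 500 genes, which left 303 UT and 37 IMQ cells, the levels were 491 and 383 CPM and the log2 ratio was -0.36 (-0.93 to 0.17). The IMQ level then rested on 4 positive cells, of which 1 held 18 of the 32 UMIs, and the shares of cells with a UMI were 20.1% and 10.8%. In IMQ, 18 of the 41 UMIs came from a single cell, and without the top cell of each library the log2 ratio was -3.10 (-3.77 to -2.49). With a mitochondrial maximum of 10%, which kept 1301 UT and 1043 IMQ cells, Crabp1 gave 587 UMIs in UT and 62 in IMQ, with a log2 ratio of -2.61 (-3.01 to -2.23).

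Crabp1 was concentrated in few cells. In UT, 26 cells with 5 or more UMIs held 328 of the 524 UMIs (62.6%), with a median of 10 and a maximum of 46 UMIs in a cell. A further 37 cells had 2 to 4 UMIs and 97 cells had 1. In IMQ, 4 cells with 5 or more UMIs held 36 of the 41 UMIs, and the other 5 positive cells had 1 UMI each. The cells with 5 or more UMIs made up 2.49% of UT cells and 0.701% of IMQ cells. They were deeper than the rest, with median depths of 2172 UMIs against 717 for Crabp1-negative cells in UT and 6499.5 against 658 in IMQ.

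**Figure D2:**
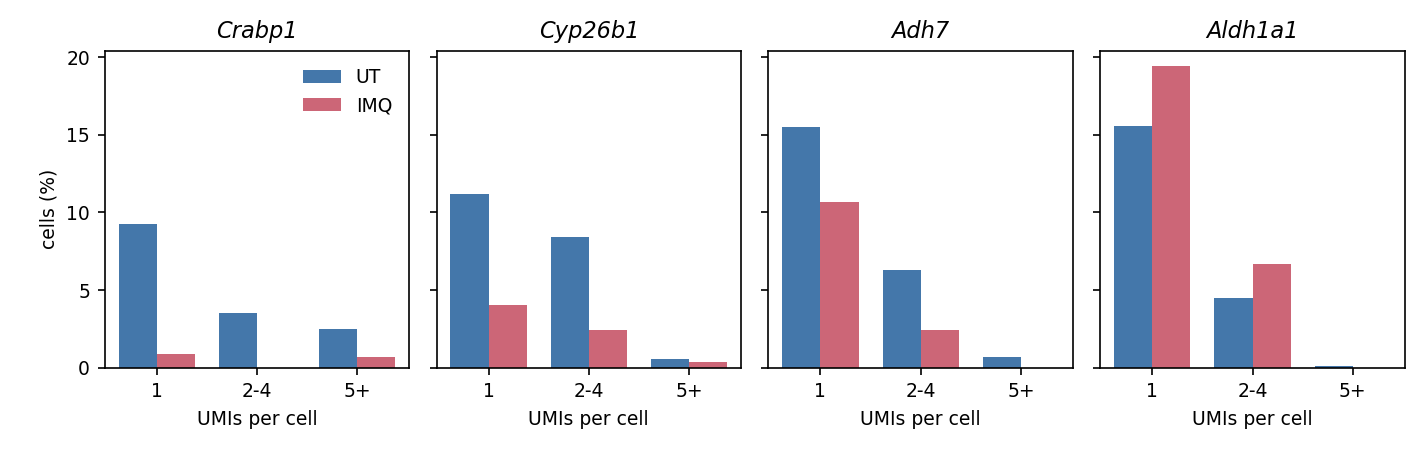
Percentage of kept cells with 1, with 2 to 4 and with 5 or more UMIs of Crabp1, Cyp26b1, Adh7 and Aldh1a1, for UT (blue) and IMQ (red). Crabp1 had 2.49% of UT cells in the highest class, while Aldh1a1 had 0.0957% of UT cells and 0 IMQ cells there.

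The UT cells with 5 or more Crabp1 UMIs carried other markers than the cells without Crabp1. Classes of Crabp1 UMIs were set after its distribution had been seen, and the values are a description. The summed level of 8 dermal papilla genes was 44.7 CPM in cells without Crabp1, 40.2 with 1 UMI, 336 with 2 to 4 and 1775 CPM (1456 to 2143) with 5 or more. Of that list, Notum, a secreted inhibitor of Wnt, gave 42 UMIs in 9 of the 26 cells, Bmp4, a bone morphogenetic protein, 39 UMIs in 10 cells, and Rspo3, an enhancer of Wnt signalling, 21 UMIs in 10 cells. Sox2 and Corin, also on the list, were at 0 in these 26 cells. The papillary fibroblast list differed by a smaller factor, with 318 CPM in cells without Crabp1 and 1150 CPM in the highest class. Its genes differed, since Lef1 and Wif1, both of the Wnt pathway, gave 21 UMIs each in the highest class, while Pdpn gave 1 UMI (16.4 against 114 CPM) and Ntn1 gave 0 (against 83.9 CPM).

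The summed level of the 9 general fibroblast markers had the opposite order. It was 88325 CPM in UT cells without Crabp1, 82324 with 1 UMI, 42099 with 2 to 4 and 6836 CPM (6195 to 7526) with 5 or more. The collagen gene Col1a1 was at 28015 CPM in cells without Crabp1 and at 1315 CPM in the highest class, where 16 of 26 cells had a UMI. Decorin (Dcn) was at 25389 and 3303 CPM, with a UMI in 18 of the 26 cells. Pdgfra, the gene of the sort, was not lower there, at 43.6 CPM (31.0 to 59.6) in cells without Crabp1 and 65.7 CPM (17.9 to 168) in the highest class, and Pdgfrb was at 53.7 and 49.3 CPM. The reticular list was at 3527 and 378 CPM and the fascial list at 1139 and 82.2 CPM. Markers of other cells were low in the highest class, with 5 UMIs over the keratinocyte list, 2 over the myeloid list, 6 over the mural list, and 0 over the Schwann and melanocyte lists. The cells are therefore called here by their Crabp1 count and not by a cell type.

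**Figure D3:**
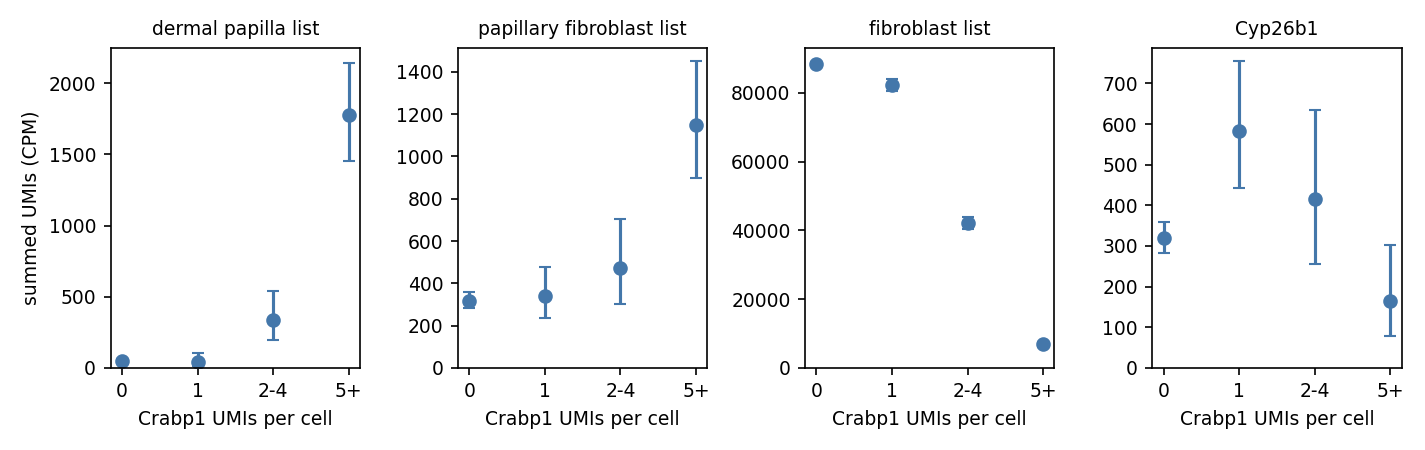
Summed level in CPM of the dermal papilla, papillary fibroblast and fibroblast lists and of Cyp26b1 in UT cells with 0, 1, 2 to 4 and 5 or more Crabp1 UMIs (885, 97, 37 and 26 cells). Points are sums over the cells of a class and bars are exact 95% intervals for counting error only. The dermal papilla list was highest and the fibroblast list lowest in the class with 5 or more.

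The 4 IMQ cells with 5 or more Crabp1 UMIs had 654 CPM over the dermal papilla list and 1215 CPM over the fibroblast list. IMQ cells without Crabp1 had 36.8 and 129016 CPM. Pdgfra gave 6 UMIs in 3 of the 4 cells, at 280 CPM (103 to 610) against 27.6 CPM (14.2 to 48.2). Over all kept cells, the dermal papilla list was at 153 CPM in UT and at 65.1 CPM in IMQ. Sox2, Alx4 and Corin gave 0 UMIs in IMQ and only 3, 6 and 0 UMIs in UT, too few to compare. Of the list, only Sox18 was higher in IMQ, with 2 UMIs in UT and 4 in IMQ. Crabp1 had a UMI in 15.3% of UT and 1.58% of IMQ cells, and a positive cell held on average 3.27 UMIs in UT and 4.56 in IMQ. Outside the cells with 5 or more UMIs, Crabp1 gave 196 UMIs in UT and 5 in IMQ, and the log2 ratio was -4.04 (-5.68 to -2.80), a description since these classes use Crabp1 itself. The part of the dermal papilla genes in the Crabp1 ratio was not tested.

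Crabp2 (ENSMUSG00000004885, chromosome 3, 87948666 to 87953376, plus strand), whose product delivers retinoic acid to its receptors, was rare in both libraries. It gave 24 UMIs in 9 UT cells and 4 UMIs in 3 IMQ cells, at 21.7 CPM (13.9 to 32.3) and 8.68 CPM (2.36 to 22.2). The log2 ratio of -1.32 had an interval from -3.31 to 0.22, so no difference was detectable at this depth. In UT, 12 of the 24 UMIs came from 2 cells with 4 or more keratinocyte markers and a median depth of 24040.5 UMIs. Without cells that carried 2 or more markers of another cell type, the log2 ratio was -0.42 (-2.51 to 1.30). With a mitochondrial maximum of 10% it was -2.01 (-3.99 to -0.47), over all deposited barcodes it was -3.33 (-5.31 to -1.80), and with at least 500 genes per cell it was 0.09 (-2.30 to 1.83). Crabp1 was also seen in 6 of the 9 UT cells with Crabp2 and in 2 of the 3 IMQ cells, against 1.38 and 0.0473 cells from the product of their shares. Cells with Crabp2 were deep, with medians of 3486 and 7310 UMIs, and after thinning to 400 UMIs 1 joint cell was left in UT, against 0.299 from the product, and 0 in IMQ.

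Rbp4 (ENSMUSG00000024990, chromosome 19, 38116629 to 38125281, minus strand), which encodes the retinol carrier of plasma, was near the limit of detection. It gave 15 UMIs in 14 UT cells and 4 UMIs in 4 IMQ cells, with a log2 ratio of -0.65 (-2.70 to 1.00). With a mitochondrial maximum of 10% the counts were 18 and 17 UMIs and the log2 ratio was 0.55 (-0.49 to 1.59), so its direction depended on that limit.

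Both alcohol dehydrogenase genes were lower in IMQ, and which had the lower ratio depended on the setting. Adh1 (ENSMUSG00000074207, chromosome 3, 138260991 to 138290698, plus strand) gave 105 UMIs in 85 UT cells and 20 UMIs in 18 IMQ cells. Its level was 95 CPM (77.7 to 115) in UT and 43.4 CPM (26.5 to 67.0) in IMQ, and the log2 ratio was -1.13 (-1.90 to -0.43). With at least 500 genes per cell the log2 ratio was -0.08 (-1.46 to 1.06). Adh1 overlaps Gm16559 on the other strand.

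Adh7 (ENSMUSG00000055301, chromosome 3, 138217760 to 138233382, plus strand) lies beside Adh1 and was seen in more cells than any other member in UT. It gave 367 UMIs in 235 UT cells (22.5%) and 96 UMIs in 75 IMQ cells (13.1%). Its level was 332 CPM (299 to 368) in UT and 208 CPM (169 to 254) in IMQ, and the log2 ratio was -0.67 (-1.01 to -0.35). This was close to the median log2 ratio of -0.61 over all measured genes, and relative to that median Adh7 was at -0.06. Over all deposited barcodes the log2 ratio of Adh7 was -1.14 and that of Adh1 was closer to 0, and with at least 500 genes per cell the ratio of Adh7 was -0.78. There were 0.286 Adh1 UMIs per Adh7 UMI (0.228 to 0.356) in UT and 0.208 (0.122 to 0.340) in IMQ, with overlapping intervals. Thinned to 400 UMIs, its shares were 12.6% in UT and 6.69% in IMQ. Adh7 overlaps 0610031O16Rik on the other strand.

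Of the genes for enzymes that make retinoic acid, Aldh1a1 was higher in IMQ, and the other two were all but absent. Aldh1a1 (ENSMUSG00000053279, chromosome 19, 20492715 to 20643465, plus strand) gave 274 UMIs in 211 UT cells and 195 UMIs in 149 IMQ cells. Its level was 248 CPM (220 to 279) in UT and 423 CPM (366 to 487) in IMQ, 1.71-fold higher, with a log2 ratio of 0.77 (0.50 to 1.04). Relative to the median gene the log2 ratio was 1.38, and 93.7% of measured genes had a lower ratio. The share of cells with a UMI was 20.2% (17.8 to 22.8) in UT and 26.1% (22.5 to 29.9) in IMQ. Thinned to 400 UMIs, the shares were 10.7% and 16.5%, and over 20 draws they ranged from 9.16% to 11.8% and from 12.8% to 16.9%. With at least 500 genes per cell the log2 ratio was 0.28 (-0.46 to 0.95).

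The UMIs of Aldh1a1 were spread over many cells, unlike those of Crabp1. The highest cell held 5 UMIs in UT and 4 in IMQ, and the top 10 cells held 12.4% and 14.4% of its UMIs, against 39.7% for Crabp1 in UT. Aldh1a1 overlaps C730002L08Rik and Gm6684 on the other strand. Aldh1a2 (ENSMUSG00000013584, chromosome 9, 71215789 to 71296243, plus strand) had 0 UMIs in both libraries and over all deposited barcodes. By the limit of 3 counts, 0 of 1045 and 0 of 571 cells allow up to 0.287% of UT and 0.525% of IMQ cells with a UMI at this depth, which does not limit the share of cells that express the gene. It overlaps Gm48124 on the other strand. Aldh1a3 (ENSMUSG00000015134, chromosome 7, 66390890 to 66427517, minus strand) had 1 UMI in UT and 0 in IMQ, and no ratio is given.

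Cyp26b1 (ENSMUSG00000063415, chromosome 6, 84571414 to 84593908, minus strand), whose product clears retinoic acid, was lower in IMQ. It gave 374 UMIs in 211 UT cells and 69 UMIs in 39 IMQ cells. Its level was 339 CPM (305 to 375) in UT and 150 CPM (116 to 189) in IMQ, 2.26-fold lower, with a log2 ratio of -1.18 (-1.57 to -0.80). Relative to the median gene the log2 ratio was -0.56. The share of cells with a UMI was 20.2% (17.8 to 22.8) in UT and 6.83% (4.90 to 9.22) in IMQ, and 11.2% and 4.65% after thinning to 400 UMIs. With a mitochondrial maximum of 10% Cyp26b1 gave 507 and 118 UMIs and a log2 ratio of -1.47 (-1.77 to -1.18). With at least 500 genes per cell the levels were 362 and 347 CPM and the log2 ratio was -0.06 (-0.67 to 0.50).

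**Figure D4:**
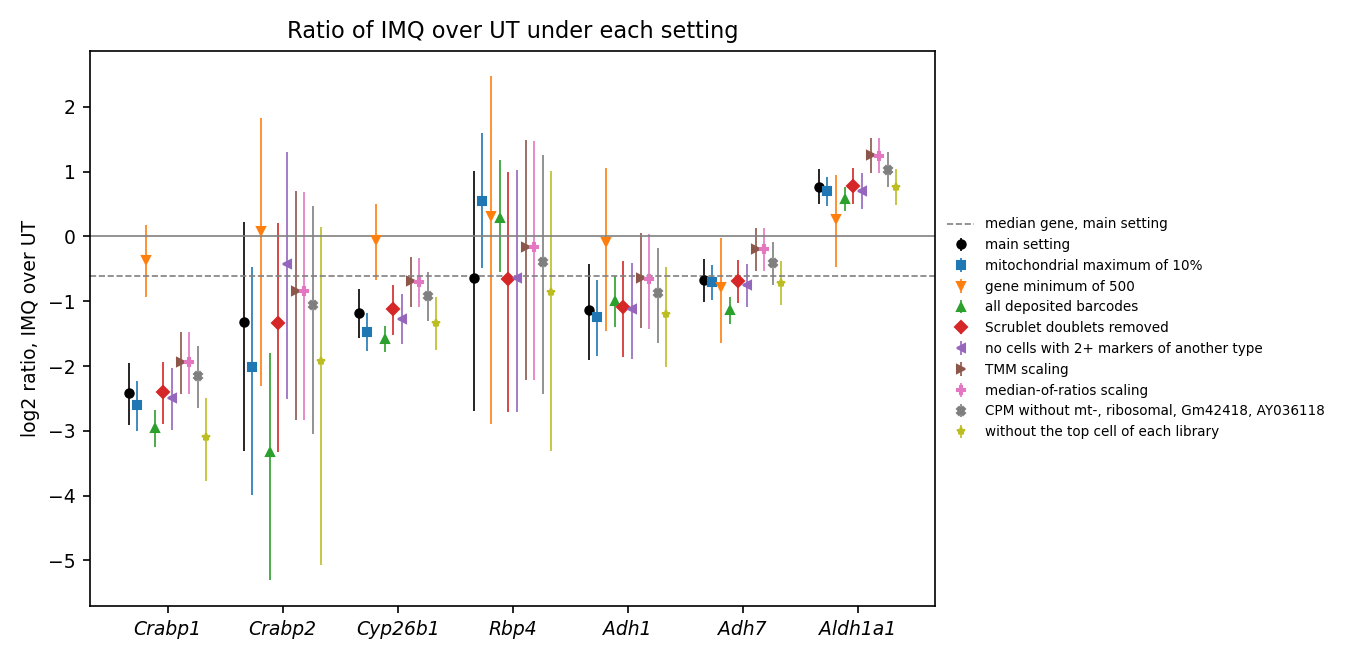
Log2 ratio of IMQ over UT for the 7 members with at least 10 UMIs, under the main setting (black) and 9 other settings (colours), with exact 95% intervals for counting error only. The dashed line is the median gene under the main setting at -0.61. Crabp1 stayed lowest under most settings and moved to -0.36 with at least 500 genes per cell, while Aldh1a1 was above 0 under each of the 10 settings.

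Ratios between single members within a library need no scaling between libraries, and they follow from the counts given above. There were 0.733 Aldh1a1 UMIs per Cyp26b1 UMI (0.625 to 0.858) in UT and 2.83 (2.14 to 3.78) in IMQ, a 3.86-fold difference, and the intervals did not overlap. With at least 500 genes per cell the values were 0.573 (0.458 to 0.715) and 0.724 (0.393 to 1.31), a 1.26-fold difference with overlapping intervals. Crabp1 gave 1.40 UMIs per Cyp26b1 UMI (1.22 to 1.60) in UT and 0.594 (0.394 to 0.887) in IMQ, and 1.36 and 1.10 with at least 500 genes per cell. Cyp26b1 gave 3.56 UMIs per Adh1 UMI (2.86 to 4.47) in UT and 3.45 (2.07 to 5.99) in IMQ, the latter from 20 Adh1 UMIs. Over all deposited barcodes the values were 4.79 (3.94 to 5.86) and 3.21 (2.54 to 4.09). The intervals of UT and IMQ overlapped in both settings. Cells with Aldh1a1 and without Cyp26b1 made up 15.2% (13.1 to 17.5) of UT cells and 23.5% (20.05 to 27.2) of IMQ cells. Cells with Cyp26b1 and without Aldh1a1 made up 15.1% (13.0 to 17.4) and 4.20% (2.71 to 6.19).

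Of the 7 members with at least 10 UMIs over both libraries, 4 were at least 2-fold lower in IMQ (Crabp1, Crabp2, Cyp26b1 and Adh1) and 0 were at least 2-fold higher. The interval of Crabp2 included 0. Without cells that carried 2 or more markers of another cell type, its log2 ratio was -0.42 and 3 members were at least 2-fold lower. No share over all genes is given for that setting. The median log2 ratio of the 7 was -1.13. Over all 8129 genes with at least 10 UMIs, 32.1% were at least 2-fold lower and 4.03% at least 2-fold higher, with a median of -0.61, so lower values were common in IMQ. With TMM scaling, which adds 0.48 to every log2 ratio and brings the median gene to -0.13, 1 member (Crabp1) was at least 2-fold lower and 1 (Aldh1a1) at least 2-fold higher. The percentages over all genes were then 17.1% and 10.1%. Under TMM the log2 ratio of Cyp26b1 was -0.69 (-1.09 to -0.32), and the intervals of Adh1 (-0.65) and Adh7 (-0.19) included 0.

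Crabp1 and Cyp26b1 were next compared cell by cell. In UT, a Cyp26b1 UMI was found in 44 of 160 cells with Crabp1 (27.5%, 20.7 to 35.1) and in 167 of 885 cells without it (18.9%, 16.3 to 21.6). The product of the shares gives 32.3 joint cells. Cells with Crabp1 were deeper, with a median of 903.5 against 717 UMIs. After thinning to 400 UMIs, Cyp26b1 was found in 11 of 97 cells with Crabp1 (11.3%, 5.80 to 19.4) and in 98 of 875 cells without it (11.2%, 9.19 to 13.5), and the product of the shares gives 10.9 joint cells. Over 20 draws the thinned share ranged from 8.42% to 19.0% with Crabp1 and from 9.24% to 11.97% without it. The thinned intervals overlapped, and thinning left 97 cells with a Crabp1 UMI of 160, so it also reduced what could be detected. In IMQ only 1 of 9 cells with Crabp1 had Cyp26b1, against 38 of 562 without it, too few to compare.

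**Figure D5:**
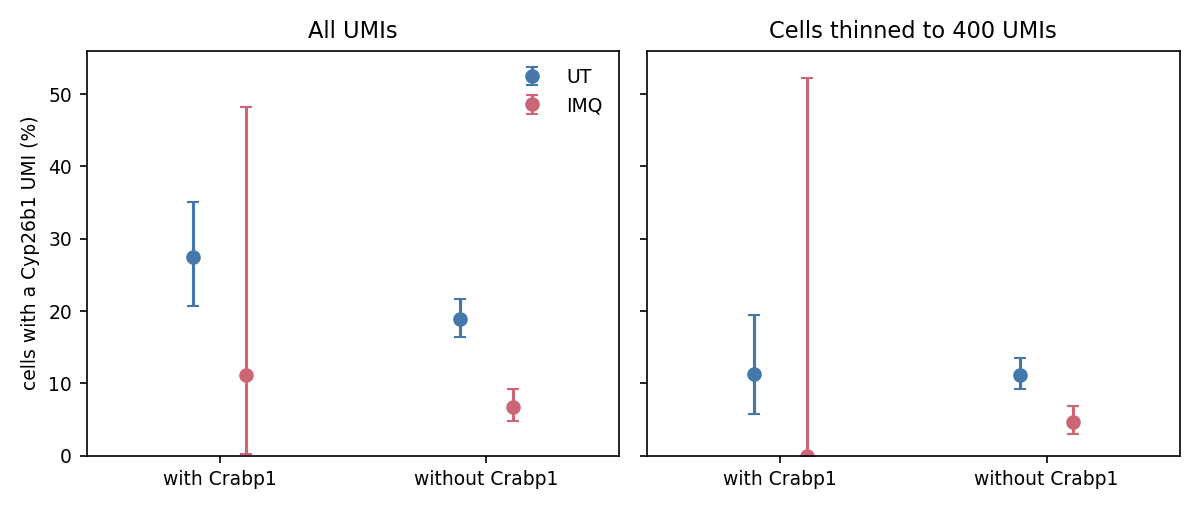
Percentage of cells with a Cyp26b1 UMI among cells with and without a Crabp1 UMI, for UT (blue) and IMQ (red), with all UMIs (left) and after thinning each cell to 400 UMIs (right). Bars are exact 95% binomial intervals. In UT the values were 27.5% and 18.9% with all UMIs and 11.3% and 11.2% after thinning.

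Cyp26b1 had no steady order by Crabp1 count in UT. Its summed level was 319 CPM (283 to 358) in cells without Crabp1, 583 CPM (443 to 754) in cells with 1 UMI, 415 CPM (257 to 634) in cells with 2 to 4 and 164 CPM (78.8 to 302) in cells with 5 or more. The intervals of cells with 1 UMI and of cells without Crabp1 did not overlap, at median depths of 770 and 717 UMIs. The share with a Cyp26b1 UMI in the last class was 5 of 26 cells, although these cells were the deepest. The dehydrogenase genes were also low there, with 3 Adh7 UMIs, 3 Aldh1a1 UMIs and 0 Adh1 UMIs over the 26 cells, at 49.3, 49.3 and 0 CPM against 367, 267 and 106 CPM in cells without Crabp1. Crabp2 gave 6 UMIs in 4 of the 26 cells, at 98.6 CPM (36.2 to 215) against 15.7 CPM (8.56 to 26.3).

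Other pairs of members shared from fewer to more cells than the product of their shares gives. In UT, Cyp26b1 and Adh1 shared 27 cells against 17.2, and 6 against 4.04 after thinning. Adh1 and Aldh1a1 shared 26 cells against 17.2, and 3 against 3.85 after thinning. Adh7 and Aldh1a1 shared 62 cells against 47.4 from the product, and 18 against 13.1 after thinning. Cyp26b1 and Aldh1a1 shared 53 cells against 42.6, and 11 against 11.7 after thinning. Crabp1 and Aldh1a1 shared 29 cells against 32.3, and 10 against 10.4 after thinning. The thinned joint counts are from 1 random draw without an interval, and are too small to tell an excess from a deficit. No correction for depth other than thinning was made.

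A background share of cells from free RNA could not be set, since cells of types that should lack these genes were too few. Only 3 UT and 4 IMQ cells carried 4 or more myeloid markers, and of the members only Rbp4 had a UMI in them, in 1 UT cell. In UT, 2 cells carried 4 or more keratinocyte markers, at a median depth of 24040.5 UMIs. Of the members they gave only Crabp2, with 12 UMIs, and Adh1, with 4 UMIs in 1 of them.

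Of 54 further retinoid genes, 24 had at least 10 UMIs, of which 11 were at least 2-fold lower in IMQ and 1, Rdh14, at least 2-fold higher, with a median log2 ratio of -0.69, beside 32.1% and 4.03% of all genes. Of the 54, 13 had 0 UMIs in both libraries, among them Stra6, the receptor for RBP4 at the cell surface. Under TMM the counts were 6 and 2. Lipoprotein lipase Lpl gave 127 and 60 UMIs, at 115 and 130 CPM, with a log2 ratio of 0.18 (-0.29 to 0.63). This was 0.79 above the median gene, and the interval lay above that median.

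Among the genes for interconversion of retinol and retinaldehyde, Dhrs7 gave 118 and 56 UMIs with a log2 ratio of 0.19 (-0.30 to 0.66), and Adh5 gave 69 and 23 UMIs with a log2 ratio of -0.32 (-1.07 to 0.38). Dhrs4 gave 33 and 17 UMIs with a log2 ratio of 0.30 (-0.63 to 1.19). None of these intervals excluded 0. Relative to the median gene the log2 ratios were 0.80 for Dhrs7, 0.29 for Adh5 and 0.92 for Dhrs4. The interval of Dhrs7 lay above the median of -0.61, while those of Adh5 and Dhrs4 included it. Cyp26a1, which like Cyp26b1 degrades retinoic acid, had 1 UMI in UT and 0 in IMQ, and Cyp26c1 had 0 in both. Cyp26b1 thus gave all but 1 of the UMIs of its family.

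Receptors were sparse. Rarg was the most abundant, with 84 UT and 21 IMQ UMIs, at 76.0 and 45.6 CPM, a log2 ratio of -0.74 (-1.50 to -0.04). Rara gave 15 and 4 UMIs, Rarb 1 and 0, Rxra 31 and 5, Rxrb 15 and 5, and Rxrg 1 and 0. The corepressor gene Ncor1 gave 134 and 27 UMIs with a log2 ratio of -1.05 (-1.70 to -0.45). Relative to the median gene Rarg was at -0.13 and Ncor1 at -0.44, and both intervals included that median. Fabp5, a fatty acid binding protein that also binds retinoic acid, gave 69 and 7 UMIs with a log2 ratio of -2.04 (-3.41 to -0.92), and 28 of the 69 UT UMIs were in a single cell. Among known target genes of retinoic acid, Rarres2, which encodes chemerin, was by far the most abundant. It gave 2556 UMIs in UT and 836 in IMQ, at 2314 CPM (2225 to 2405) and 1814 CPM (1693 to 1941), with a log2 ratio of -0.35 (-0.47 to -0.24), which is 0.26 above the median gene.

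Genes with the most similar pattern across the 1045 UT cells were taken by Pearson's r of log2(1 + UMIs per 10000) among 2004 genes seen in at least 5% of cells. For Crabp1 these were Gpm6b (0.27), Nrn1 (0.18), S100a4, S100a6 and Zeb2. For Cyp26b1 they were Fbn1 (0.19), Col5a1 (0.19), Eln (0.18), Col5a2 (0.17) and Crispld2 (0.15), of which the collagen, fibrillin and elastin genes encode parts of elastic fibres or of collagen fibrils. Crispld2 was also first for Cyp26b1 across the 571 IMQ cells (0.25). For Aldh1a1 in UT they were Aebp1 (0.16), Fcgrt, Lum, Eid1 and Rcn3, for Adh7 they were Gpx3 (0.15), Pcbp1, Ppfibp1, Tbcb and Glul, and for Adh1 they were Psmc4 (0.13), Pdia6, Denr, Akr1a1 and Hnrnpk. Across the IMQ cells, among 1142 genes seen in at least 5% of them, Igfbp3 (0.25) led the list for Crabp1, from 9 cells with Crabp1. Mrps33 (0.22) led the IMQ list for Adh7 and Tmem140 (0.16) that for Aldh1a1. The cells share a library and differ in depth, the values are low, and they are given as descriptions. By class of Crabp1 UMIs, Nrn1 was at 90.6 CPM in UT cells without Crabp1 and at 986 CPM in cells with 5 or more, and Gpm6b was at 133 and 493 CPM. Both genes were picked by their similarity to Crabp1 in these same UT cells, so these levels are no separate support. In the 4 IMQ cells with 5 or more Crabp1 UMIs, Nrn1 gave 8 UMIs and Gpm6b gave 0.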

How the data were processed

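Dermal tdTomato+ CD45- cells were profiled with the Chromium 3′ kit v3, 1 library per group. The authors deposited UMI counts per gene and barcode, written by Cell Ranger without normalisation, with version 3.0.0 for UT and 3.1.0 for IMQ per the file headers. The submitters' processing notes name mm10. Of 31053 identifiers, 31011 were found in GENCODE M21 (GRCm38), the source of all gene coordinates. The study counted more IMQ cells after filtering than the IMQ matrix has barcodes, so the matrix may differ from the one it used. For UT it also counted more cells after filtering than the 1045 kept here, so the kept UT cells differ from its set. Whether counting used strand was not stated, so overlapping genes are named.

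The filters on cells follow the study's methods, except that its doublet step (DoubletFinder) was not used here. Scrublet (scanpy 1.11.5) was an alternative that removed 9 UT and 3 IMQ cells. UMIs were summed per library and divided by its total (CPM). Exact Poisson, Clopper-Pearson and conditional binomial intervals at 95% came from scipy 1.17.1 and were tested on simulated data. TMM factors came from edgeR 4.0.16. A count of 3 equals 2.72 CPM in UT and 6.51 CPM in IMQ. Thinned shares are from 1 random draw, with the range over 20 draws. Named genes were all members, other retinoid genes with at least 50 UMIs over both libraries, the RAR and RXR genes, and the 5 most similar genes per member and library, of which the IMQ lists are given by their first gene. Rdh14, Stra6, Cyp26a1, Cyp26c1 and the marker genes within Crabp1 classes were named after their values were seen. A gene that this rule names is not reported here. Members and lists were chosen with earlier results of these data known. The planned protein comparison of CRABP1 and CRABP2 was not made.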

Additional observations from a re-analysis of the deposited data

Results flagged for a closer look

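Retinoid genes were also counted in the barcodes outside the filters, 370 in UT with 419281 UMIs and 4476 in IMQ with 1897356 UMIs. Cd36, a fatty acid translocase gene of the uptake list, gave 13 UMIs in 5 IMQ barcodes outside the filters and 0 in such UT barcodes, with 9 of the 13 in a single barcode. Aldh1a7 gave 8 UMIs in IMQ barcodes outside the filters and 0 in UT. Both had at most 3 UMIs in the kept cells of either library and were named for a signal outside them above the 0 of UT. Their levels of 6.85 and 4.22 CPM lie under the 7.16 CPM of 3 UMIs in these UT barcodes, so a difference from UT was not detectable at this depth. Scarb1, which had 6 UMIs in kept UT cells, gave 47 UMIs outside the filters in IMQ and 0 in UT, 40 of them in a single barcode, and was named after its value was seen. The IMQ barcodes outside the filters held more UMIs than those of UT, and the part of this difference in the counts was not tested.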

How the results depend on the processing

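No paired analysis was possible because there was 1 library per group. Of 319 alternative values, 225 stayed within the counting error of the reported value or within 1.5 times a count, 94 moved and 0 of the values whose interval left out 0 turned sign. Rbp4 and Crabp2, whose intervals included 0, changed sign with at least 500 genes per cell, and Rbp4 also with the 10% limit and over all barcodes. A minimum of 500 genes per cell left 37 IMQ cells and moved the log2 ratios to -0.36 for Crabp1, -0.061 for Cyp26b1, -0.079 for Adh1 and 0.28 for Aldh1a1. It moved the share of cells with Crabp1 to 20.1% in UT and 10.8% in IMQ, that with Cyp26b1 to 35.3% and 24.3%, and Cyp26b1 to 37.7% of UT cells with Crabp1, 34.7% of those without it and 24.2% of IMQ cells without it. It left 0 members and 4 other retinoid genes at least 2-fold lower and 3 others higher. No share over all genes is given for this setting, so these counts are not read as a result about the retinoid genes. Fewer cells were tested there, and otherwise the cause of these moves was not tested.

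Over all deposited barcodes the log2 ratios were -2.96 for Crabp1, -3.33 for Crabp2, -1.58 for Cyp26b1 and -1.14 for Adh7. Cyp26b1 was then seen in 4.20% of IMQ barcodes and 4.16% of those without Crabp1, and 3 other retinoid genes were higher, as with a mitochondrial maximum of 10%, where there were also 3. Without the top cell of each library the log2 ratio of Crabp1 was -3.10. With TMM the log2 ratios were -1.93 for Crabp1, -0.69 for Cyp26b1, -0.19 for Adh7 and 1.25 for Aldh1a1, and with median-of-ratios scaling -1.94, -0.70, -0.20 and 1.25. Under both scalings 1 member was lower and 1 higher, and 6 and 2 other retinoid genes were. Without mitochondrial, ribosomal, Gm42418 and AY036118 UMIs in the totals, 2 members were lower, 1 member and 2 other genes higher. Without cells that carried markers of another type, 3 members and 7 other genes were lower. Shares over all genes are given for the main setting (32.1% lower, 4.03% higher) and for TMM (17.1% and 10.1%) only. Counts under the other settings can therefore not be told from a general shift.

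After thinning to 400 UMIs, Crabp1 was seen in 9.98% of UT cells and Cyp26b1 in 11.2% of UT and 4.65% of IMQ cells. Cyp26b1 was then seen in 11.3% of UT cells with Crabp1 and 11.2% of those without it, and in 0% and 4.69% in IMQ. Depth limits Crabp2, Rbp4, Aldh1a2 and Aldh1a3, whose IMQ counts were at most 4.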

Other observations

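Among barcodes outside the filters, Cyp26b1 gave 215 UMIs in 93 UT barcodes, 53 of them in a single barcode, at 513 CPM. In IMQ it gave 236 UMIs in 173 barcodes, at 124 CPM. Crabp1 gave 91 UMIs in 51 UT barcodes, at 217 CPM, and 81 in 39 IMQ barcodes, at 42.7 CPM. By CPM both genes were lower in IMQ there. Aldh1a1 gave 69 UMIs at 165 CPM in UT and 596 UMIs at 314 CPM in IMQ, so it was higher in IMQ there as well as among kept cells.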
